A study of Mus musculus with 12 samples.

Results

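Kinesins, cytoplasmic dynein and dynactin are the motors that move cargo along microtubules. Members were the protein-coding mouse genes whose symbol begins with Kif or Klc and a digit, or with Dync, Dynl or Dctn, and whose mean over 12 libraries was 1 CPM (counts scaled to a common library total) or more. Of 65 protein-coding genes with such a symbol, 50 met that level, among 13369 protein-coding genes that met it in all. They were 13 heavy chains of transport kinesins, 3 kinesin light chains, 5 chains of dynein 1, 8 dynein light chains, 6 dynactin subunits, 2 chains of dynein 2, 7 mitotic kinesins and 6 other kinesins. The last group holds Kif1bp, a kinesin-binding protein that matches only by its symbol. A further 3 genes with such symbols are pseudogenes and were not members.

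Dorsal root ganglia, where the cell bodies of sensory neurons lie next to the spinal cord, gave the RNA, which was selected by its poly(A) tail. The mutant mice were YAC Q84, which carry the human ATXN3 gene with an expanded CAG repeat on a yeast artificial chromosome and model spinocerebellar ataxia type 3. The controls were wild-type (WT) mice, and all mice were 24 weeks old. The libraries were labelled as 1 Q84 male, 5 Q84 females, 3 WT males and 3 WT females. The labels give neither the number of transgene copies nor whether each library is a separate animal. The p-values therefore rest on differences among libraries, which may be technical. Ganglia are mixed tissue, in which fewer cells of a type and less RNA per cell cannot be told apart.

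Each library held between 66490481 and 86891563 estimated counts, of which the members held 0.908 to 1.08%. One listed transcript of Atxn3, the mouse counterpart of the transgene, was at 62.7 to 79.4 TPM in 5 libraries labelled Q84 and at 0 to 0.285 TPM in 5 labelled WT. It was at 0.0612 TPM in the library labelled Q84 female 5 and at 33.97 TPM in that labelled WT female 2, both against their labels. Results are therefore given for all 12 libraries and for the 10 without these 2. TPM, which is scaled to transcript length, is used below to compare genes, and CPM scaled with TMM, a factor for library composition, to compare libraries.

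Most kinesins walk toward the plus ends of microtubules, which in an axon carries organelles, vesicles and proteins from the cell body outward, while cytoplasmic dynein with its activator dynactin carries signals and worn material back. Sensory neurons have some of the longest axons of the body, and defects of both motors are known causes of axonal disease. A second set of kinesins builds and moves the mitotic spindle and is transcribed mainly in dividing cells, whereas mature neurons do not divide.

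The members spanned a wide range of levels, with most transport motors above the mitotic kinesins. Kif1c, Dynlt1a, Kif13b and Kif13a, at means of 1.15 to 4.38 TPM over 12 libraries, lay within the range of the mitotic kinesins. The 4 highest members were dynein light chains, small subunits that also bind proteins outside the motor. Dynlrb1, a roadblock light chain, averaged 934 ± 78.1 TPM in Q84 libraries and 921 ± 71.7 TPM in WT libraries (SD, n = 6 each, as for all TPM means below). Dynll1 averaged 745 ± 79.6 TPM in Q84 and 733 ± 67.2 TPM in WT libraries. Klc1, the main light chain that couples kinesin-1 to cargo, averaged 482 ± 83.2 TPM in Q84 and 605 ± 83.95 TPM in WT libraries. The mitotic kinesins lay between 1.03 and 4.54 TPM as means of all 12 libraries.

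Within the transport heavy chains, 5 genes formed the upper end. Kif5b, the widely expressed heavy chain of kinesin-1, averaged 151 ± 48.8 TPM in Q84 and 182 ± 11.7 TPM in WT libraries. Kif21a, a kinesin that also restrains microtubule growth, averaged 145 ± 44.2 TPM in Q84 and 152 ± 20.8 TPM in WT libraries. Kif3a, a motor subunit of kinesin-2, averaged 98.3 ± 20.5 TPM in Q84 and 105 ± 8.88 TPM in WT libraries. Kif5b lay above Kif21a in 9 of 12 libraries and below it in 3, while Kif3a lay below both in 12 of 12. Kif1b, a carrier of synaptic vesicle precursors and mitochondria, and Kif5c, a kinesin-1 heavy chain enriched in neurons, had means of 86.5 and 80.8 TPM over 12 libraries. Kif5a, the neuronal kinesin-1 heavy chain mutated in a human spastic paraplegia, had 25.6 TPM and Kif1a, a carrier of synaptic and dense-core vesicles, had 20.9 TPM. The lowest transport heavy chain was Kif1c at 1.15 TPM.

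Subunits of 1 complex did not share 1 level of RNA. In dynein 1, the intermediate chain Dync1i2, which binds dynactin, averaged 381 ± 22.5 TPM in Q84 and 399 ± 23.5 TPM in WT libraries. The intermediate chain found mainly in neurons, Dync1i1, averaged 134 ± 16.4 TPM in Q84 and 143 ± 19.9 TPM in WT libraries. The heavy chain Dync1h1, which holds the motor, had 15.2 TPM over 12 libraries, and 53.7% of that lay in its protein-coding transcript of 14342 bases, the rest in short transcripts annotated mainly as retained introns. In dynactin, Dctn3, the p24 subunit, averaged 391 ± 42.9 TPM in Q84 and 480 ± 52.4 TPM in WT libraries. Dctn6 averaged 249 ± 30.2 TPM in Q84 and 270 ± 21.3 TPM in WT libraries, and Dctn5 averaged 238 ± 26.0 TPM in Q84 and 267 ± 13.1 TPM in WT libraries. Both sit at the pointed end of the complex. The large arm subunit Dctn1, which binds microtubules, had 6.48 TPM over 12 libraries, against 164 to 435 TPM for the other dynactin subunits.

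The remaining groups were low except for 3 genes. Kif1bp averaged 78.9 ± 10.4 TPM in Q84 and 77.2 ± 10.95 TPM in WT libraries, and Kif2a, which takes microtubule ends apart, averaged 31.2 ± 2.55 TPM in Q84 and 32.6 ± 3.10 TPM in WT libraries. Dync2li1, the light intermediate chain of the dynein that works in cilia, averaged 33.4 ± 4.38 TPM in Q84 and 33.0 ± 1.47 TPM in WT libraries, while its heavy chain Dync2h1 averaged 3.99 ± 0.574 TPM in Q84 and 4.90 ± 0.600 TPM in WT libraries. Kif24, a regulator of cilia, had 2.67 TPM over 12 libraries. Only 3.91% of that lay in coding transcripts. Of the 31-base words of its main transcript, the one of highest TPM, 40.8% also occur in another gene.

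**Figure D1:**
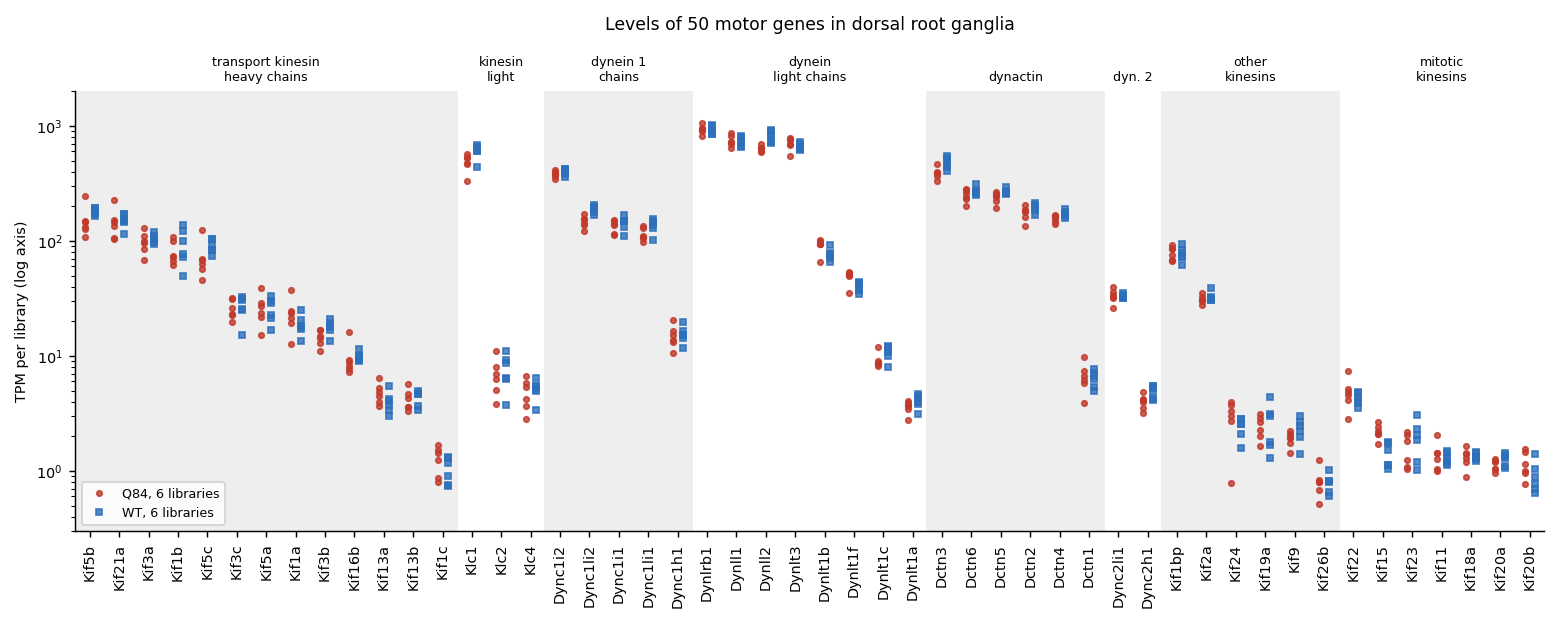
Levels of the 50 members in TPM on a log axis, 1 point per library, with Q84 libraries as circles left of WT libraries as squares in each gene. Members are grouped by role, from transport kinesin heavy chains at the left to mitotic kinesins at the right, and ordered by mean level within each role. The highest is Dynlrb1 at 927 TPM on average, and the mitotic kinesins have 1.03 to 4.54 TPM.

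The 15 genes with a matching symbol that missed the level were mitotic, ciliary or of narrow expression. Just outside lay Kif2c, a mitotic kinesin, at a mean of 0.977 CPM without further scaling. Just inside lay the mitotic kinesins Kif15 at 1.44 CPM, Kif23 at 1.48 CPM and Kif20b at 1.55 CPM. Kif17, a dendritic kinesin, was at 0.610 CPM and Kif21b, a close relative of Kif21a, at 0.665 CPM. Kif2b and Kif12 were listed at 0.

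Mitotic kinesin values stood on few reads and partly on fragments. Coding transcripts held 22.4% of the TPM of Kif15, a spindle kinesin, and 26.7% of that of Kif23, a kinesin of the final cut between daughter cells. For Kif11, which pushes the spindle poles apart, they held 99.3%, and for Kif18a, which dampens chromosome movement, 94.1%. Of 20 other genes of dividing cells such as Mki67 and Top2a, none was at 0 in all libraries. Whether cells were dividing was not tested. These 20 genes summed to 21.8 to 46.4 TPM in Q84 and 22.3 to 36.1 TPM in WT libraries.

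A pair of short light chains, the LC8 chains, is encoded by separate genes, 1 of which carries a result below. Dynll2 (chromosome 11) and Dynll1 (chromosome 5) have coding sequences of 270 bases each, which differ at 51 positions and are 81.1% identical. They are shown from the reference transcripts of GRCm38, 5′ to 3′, with the differing bases in capitals. None of the 31-base words of the main Dynll2 transcript occurs in another gene.
Dynll2: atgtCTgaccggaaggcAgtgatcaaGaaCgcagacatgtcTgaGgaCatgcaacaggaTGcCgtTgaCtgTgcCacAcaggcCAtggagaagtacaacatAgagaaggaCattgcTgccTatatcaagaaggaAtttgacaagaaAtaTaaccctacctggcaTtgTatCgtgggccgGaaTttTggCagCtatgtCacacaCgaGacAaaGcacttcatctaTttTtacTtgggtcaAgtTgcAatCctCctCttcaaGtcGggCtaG
Dynll1: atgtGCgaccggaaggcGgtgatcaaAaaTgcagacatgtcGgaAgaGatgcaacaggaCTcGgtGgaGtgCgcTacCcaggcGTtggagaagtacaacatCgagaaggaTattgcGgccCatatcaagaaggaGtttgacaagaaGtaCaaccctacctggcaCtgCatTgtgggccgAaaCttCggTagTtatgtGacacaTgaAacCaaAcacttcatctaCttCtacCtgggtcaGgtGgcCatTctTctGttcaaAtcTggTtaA

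The Tctex light chains of the Dynlt1 cluster on chromosome 17 are too alike for this. The coding sequences of Dynlt1b and Dynlt1f are 342 bases long and differ at 1 position, and their first 60 bases are shown with that base in capitals.
Dynlt1b: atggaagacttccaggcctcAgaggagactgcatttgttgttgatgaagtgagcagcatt
Dynlt1f: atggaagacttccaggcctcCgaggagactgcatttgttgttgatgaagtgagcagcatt
Of the 31-base words of their main transcripts, 86.9% for Dynlt1b, 95.8% for Dynlt1f, 81.1% for Dynlt1a and 17.5% for Dynlt1c occur in another gene. The main Dynlt1c transcript is annotated as a retained intron and has 493 bases. The coding transcript Dynlt1c-201 differs from Dynlt1b at 1 coding position, so the 17.5% does not describe its coding sequence. The estimated counts of these genes share reads and are uncertain one by one. Of the 50 members, 42 had under 5% of such shared words in their main transcript.

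Promoters differed by role in the letters searched. RefSeq (GRCm38.p6) gave a promoter, 250 bases before to 50 after the gene start, for 37 members and for 27025 genes in all. A gene with more than 1 promoter was counted if any of them held the motif. Dctn4, Dctn6, Dync1li2, Dync2li1, Dynll2, Dynlt1a, Dynlt1b, Kif13b, Kif19a, Kif20a, Kif5a, Kif5b and Klc2 had no row in that table. The cell cycle homology region TTTGAA is a motif known from genes of the late cell cycle. It stood on either strand in 5 of 6 mitotic kinesins, in 8 of 37 members (21.6%) and in 20.2% of the 27025 genes. The other 3 members with it were Kif1a, 1 of 10 transport heavy chains, Dctn1 and Kif26b. Kif1a and Dctn1 each held it in 1 of 2 promoters. Windows of 30 bases around one match each are shown on the gene's strand, with the motif or its reverse complement TTCAAA in capitals.
Kif11, chr19:37376351-37376380: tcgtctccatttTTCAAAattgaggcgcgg
Kif15, chr9:122951050-122951079: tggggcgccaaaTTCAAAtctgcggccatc
Kif20b, chr19:34922353-34922382: gagccgccattgTTTGAAtttgaaaaccgg
Kif22, chr7:127042420-127042449: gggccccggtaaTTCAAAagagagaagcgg
Kif23, chr9:61946780-61946809: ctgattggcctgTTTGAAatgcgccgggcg
The first base of these matches lay 19 bases before the start in Kif11 and Kif15, 17 before it in Kif22, at base 7 after it in Kif20b and at base 2 after it in Kif23. In Kif15 and Kif22 a second match lay farther upstream, in Kif20b a second match adjoined the first, and Kif18a had none.

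The cAMP response element TGACGTCA, a motif of cAMP-responsive genes, is its own reverse complement. It stood in 4 of 37 members (10.8%) and in 2.03% of all genes with a promoter. It lay in Kif5c, in Klc1, in Dctn3 and in Kif18a, and the first 3 are transport motors.
Kif5c, chr2:49619249-49619278: gatctctgcagTGACGTCAccgtgccgagg
Klc1, chr12:111758824-111758853: gcgagggcgggTGACGTCAcggcgcacagc
Dctn3, chr4:41723226-41723255: agcctaaacagTGACGTCActtcctacaag
Kif18a, chr2:109280757-109280786: gtctgacgtgcTGACGTCAtccgaacggca
The element began 26 bases before the start in Kif5c, 33 in Klc1 and 81 in Dctn3, and at base 30 after the start in Kif18a. CCAAT stood on either strand in 3 of 6 mitotic kinesins, 3 of 10 transport heavy chains and 41.1% of all genes with a promoter. The motif of the factor NRF1, on either strand, stood in Dync1li1 alone among the 37, and in 1.07% of all genes with a promoter. These matches are letters in a window, not measured sites.

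With all 12 libraries as labelled, no member was called between Q84 and WT. The comparison called 0 of 50 members, and 1 of 18875 genes, 0.0053%, was called (edgeR quasi-likelihood test, Benjamini-Hochberg adjusted p under 0.05, sex in the model). At an unadjusted p under 0.05 there were 3 members higher and 5 lower, against 5.72% of all genes higher and 8.56% lower. DESeq2 called 2 members, Dynll2 and Dync1li2, both lower, where it called 3.28% of all genes, and limma-voom called 0. The members' median log2 fold change was 0.03, beside 0.01 for all genes, and 27 of 50 had a positive sign.

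Without the 2 libraries that went against their Atxn3 label, 3 transport motor genes fell in Q84 and no member rose. They were Dynll2, Kif5b and Kif5c, among 1208 of 18721 genes called, 6.45%, of which 4.93% of genes tested were lower and 1.52% higher. The share of members called, 3 of 50, was thus near that of all genes. Some other settings called more members, with more or fewer genes called in all. Limma-voom called 3 members and 5.97% of all genes, and the fit without WT female 3 called 1 member and 3.95%. DESeq2 called 6 members and 10.3% of all genes, counts from length-scaled TPM 5 members and 5.9% of all genes, and a fit without sex 8 members and 8.08% of all genes. Without WT male 1, 8 members and 10.6% of all genes were called. At an unadjusted p under 0.05 there were 4 members higher and 9 lower, against 8.01% of all genes higher and 12.2% lower. The members' median log2 fold change was 0.01, and that of all genes 0.01 as well.

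**Figure D2:**
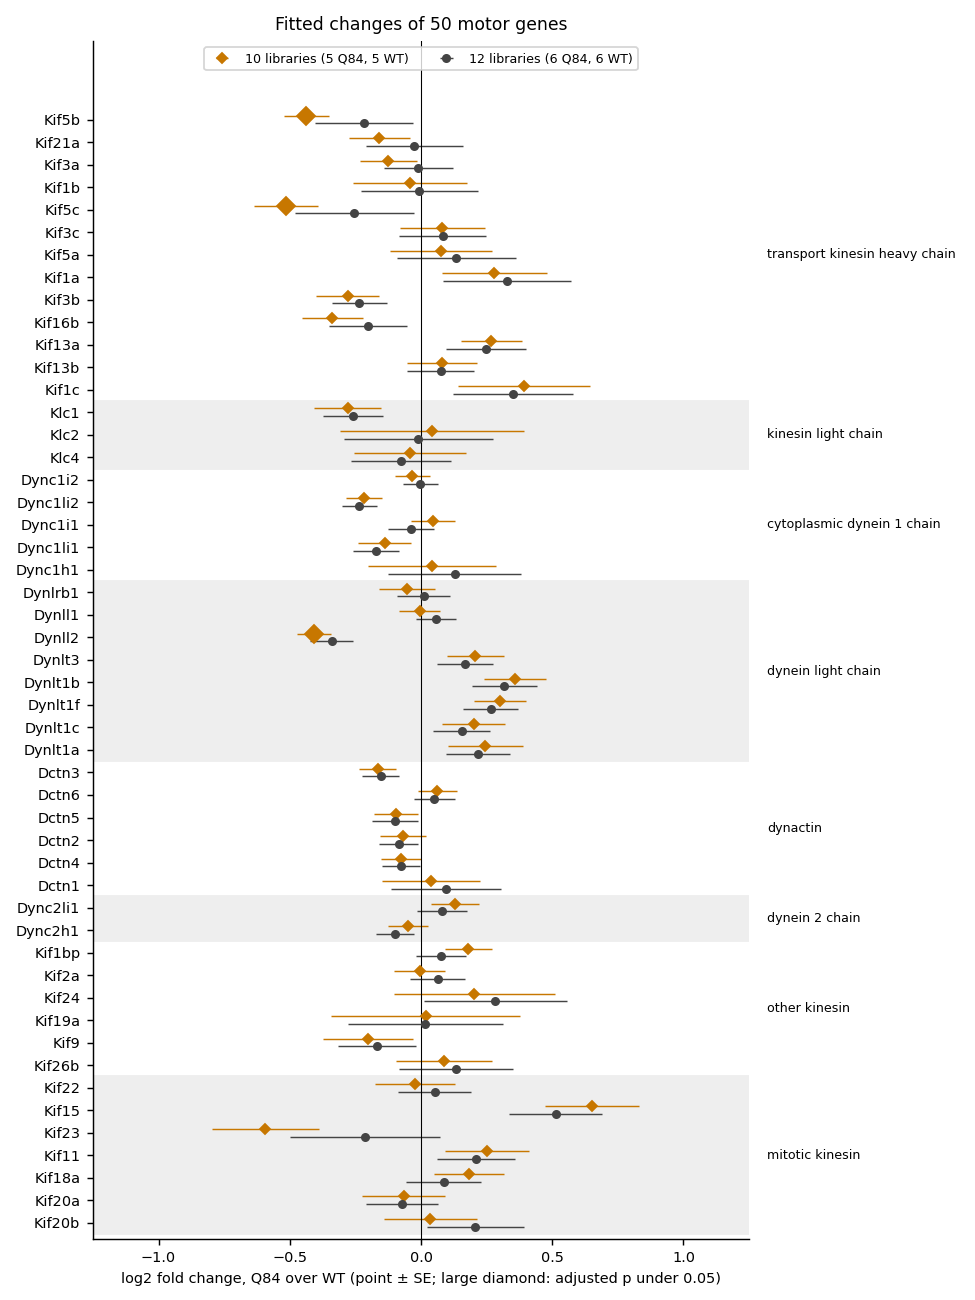
Fitted log2 fold changes of the 50 members, Q84 over WT, with standard errors. Diamonds are the 10-library fit and circles the 12-library fit, and the 3 large diamonds at Dynll2, Kif5b and Kif5c mark adjusted p under 0.05.

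Dynll2, the light chain shown above, had 981, 1153, 1074, 1119 and 1056 CPM in Q84 male 1 and Q84 females 1 to 4. It had 1218, 1310.3 and 1281 CPM in WT males 1 to 3 and 1458 and 1502 CPM in WT females 1 and 3. Every one of these Q84 libraries lay below every one of these WT libraries. The log2 fold change was -0.41 (SE 0.065, edgeR, adjusted p = 0.00288), and the call held in 10 of 10 fits that left out 1 more library. The library labelled Q84 female 5 had 1018 CPM, among the other Q84 libraries, and the library labelled WT female 2 had 1122 CPM, below all other WT libraries and inside the Q84 range. Over all 12 libraries the change was -0.34 (SE 0.080, edgeR, adjusted p = 0.106). Its close relative Dynll1 had 351 to 478 CPM, median 437, in Q84 and 347 to 440 CPM, median 389, in WT libraries, with a log2 fold change of -0.01 (SE 0.078, edgeR, adjusted p = 0.981) in the 10-library fit. The difference between the 2 genes was not tested.

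Kif5b had 582, 535, 568, 511 and 610.4 CPM in Q84 male 1 and Q84 females 1 to 4. It had 815, 772 and 649.7 CPM in WT males 1 to 3 and 747 and 804 CPM in WT females 1 and 3. The groups of 5 did not overlap, and the log2 fold change was -0.44 (SE 0.087, edgeR, adjusted p = 0.0105). The library labelled Q84 female 5 had 1099.8 CPM, above all others, and with it and WT female 2 in the fit the change was -0.22 (SE 0.19, edgeR, adjusted p = 0.649). Without WT female 3 as well, the 10-library call was lost (log2 fold change -0.39, edgeR, adjusted p = 0.0652).

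Kif5c had 313, 223, 310.4, 308 and 327 CPM in Q84 male 1 and Q84 females 1 to 4. It had 365, 466 and 417 CPM in WT males 1 to 3 and 391.8 and 477 CPM in WT females 1 and 3. These groups did not overlap either, and the log2 fold change was -0.51 (SE 0.12, edgeR, adjusted p = 0.0273). The call was lost without WT male 2, WT female 3, Q84 male 1 or Q84 female 2 and held in 6 of 10 such fits, with adjusted p up to 0.150 (edgeR). The library labelled Q84 female 5 had 641 CPM, the highest of 12, and the 12-library change was -0.25 (SE 0.23, edgeR, adjusted p = 0.670).

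The third kinesin-1 heavy chain, Kif5a, is added here after its values were seen. It had 67.8 to 184 CPM, median 114, in Q84 and 77.9 to 139 CPM, median 109, in WT libraries, which overlapped. Its log2 fold change was 0.08 (SE 0.19, edgeR, adjusted p = 0.883) in 10 libraries, an error larger than the change.

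Groups of 5 that did not overlap were found for 2 members higher and 4 lower in Q84, against 2.71% of all genes higher and 5.96% lower. The fourth lower member was Dync1li2, a light intermediate chain of dynein 1 that binds cargo adaptors. In TMM-scaled CPM it was also the only member whose groups of 6 did not overlap, where 1.15% of all genes were lower and apart. In TPM its groups overlapped, at up to 172 TPM in Q84 and from 168 TPM in WT libraries. There the only such member was Dynll2, with up to 695 TPM in Q84 and from 714 TPM in WT libraries, where 2.18% of all genes were lower and apart. Dync1li2 had 394, 461 and 476 CPM as the lowest, median and highest Q84 library and 505, 524 and 568 CPM in WT libraries. Both libraries with doubted labels lay on the side of their label, and the library labelled Q84 female 5 was the lowest. The log2 fold change was -0.24 (SE 0.067, edgeR, adjusted p = 0.141) in 12 libraries and -0.22 (SE 0.069, edgeR, adjusted p = 0.0902) in 10, so it missed the threshold in both. DESeq2 called it in 12 libraries (adjusted p = 0.0350) and in 10 (adjusted p = 0.0242). Dync1li1, the other light intermediate chain, had 188 to 228 CPM, median 196, in Q84 and 186 to 258 CPM, median 240.0, in WT libraries, with a change of -0.17 (SE 0.088, edgeR, adjusted p = 0.396) in 12 libraries.

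**Figure D3:**
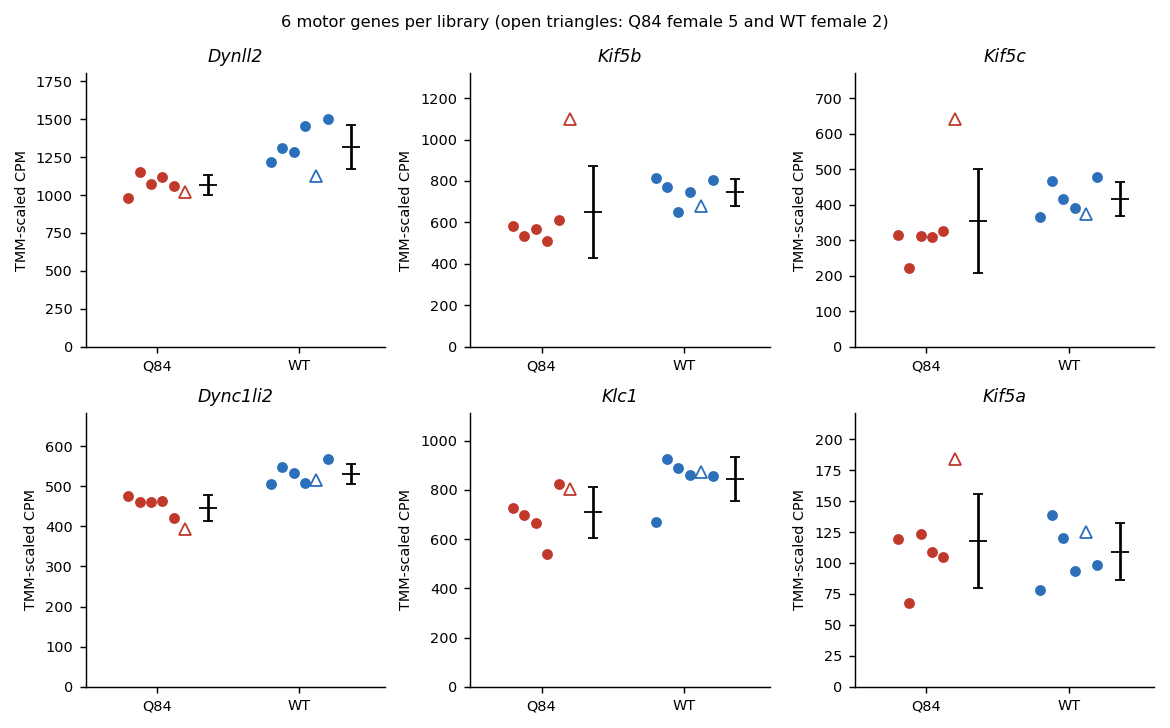
CPM per library of Dynll2, Kif5b, Kif5c, Dync1li2, Klc1 and Kif5a, with Q84 left of WT and the axis from 0. Bars give mean and SD of 6 libraries, and open triangles mark the libraries labelled Q84 female 5, which has the highest Kif5b at 1099.8 CPM, and WT female 2.

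Kinesin light chains were not called. Klc1 had 538, 713 and 823 CPM as the lowest, median and highest Q84 library and 668, 866 and 927 CPM in WT libraries. All WT libraries other than WT male 1 at 668 CPM lay above all Q84 libraries. The log2 fold change was -0.26 in 12 libraries (SE 0.11, edgeR, adjusted p = 0.321) and -0.28 in 10 (SE 0.13, edgeR, adjusted p = 0.247). Klc2 had 8.10 to 22.1 CPM in Q84 and 7.29 to 21.3 CPM in WT libraries, and Klc4 had 4.91 to 10.3 CPM in Q84 and 5.44 to 9.27 CPM in WT libraries, each with full overlap.

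Other transport kinesins of small p missed the threshold as well. Kif3b, a partner of Kif3a in kinesin-2, had 49.6 to 66.8 CPM, median 60.1, in Q84 and 55.8 to 81.3 CPM, median 68.9, in WT libraries, with a 12-library change of -0.24 (SE 0.11, edgeR, adjusted p = 0.333). Kif16b, a carrier of early endosomes, had 23.3 to 46.6 CPM, median 30.9, in Q84 and 32.3 to 43.3 CPM, median 36.7, in WT libraries, with a 10-library change of -0.34 (SE 0.12, edgeR, adjusted p = 0.116). It was called lower without WT male 1 (-0.38, edgeR, adjusted p = 0.0316) and without sex in the model (-0.37, edgeR, adjusted p = 0.0496). Kif13a, a carrier of endosomes and Golgi vesicles, had 10.1 to 17.6 CPM, median 12.1, in Q84 and 8.68 to 13.4 CPM, median 10.3, in WT libraries, with a 10-library change of 0.27 (SE 0.12, edgeR, adjusted p = 0.219). In each of these 3 genes the groups overlapped. The other transport heavy chains had 12-library changes within -0.25 to 0.35.

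Dynein light chains of the Tctex type had a positive sign in estimated counts, though not all of them in TPM. They were not called in the 12- or 10-library fit with sex in the model, while other settings called some of them higher. Dynlt1b had 27.5, 37.4 and 42.0 CPM as the lowest, median and highest Q84 library and 24.8, 29.3 and 37.6 CPM in WT libraries, a log2 fold change of 0.32 in 12 libraries (SE 0.13, edgeR, adjusted p = 0.268) and 0.36 in 10 (SE 0.12, edgeR, adjusted p = 0.104). In the 10 libraries it was called without WT male 1 (0.43, edgeR, adjusted p = 0.0035), in females only (0.39, edgeR, adjusted p = 0.0412) and without sex in the model (0.37, edgeR, adjusted p = 0.0447). Dynlt1f had 17.9, 23.3 and 25.6 CPM in Q84 and 16.5, 18.5 and 21.7 CPM in WT libraries, a change of 0.27 in 12 libraries (SE 0.11, edgeR, adjusted p = 0.269) and 0.30 in 10 (SE 0.099, edgeR, adjusted p = 0.103), where the groups of 5 did not overlap. In the 10 libraries it was called by DESeq2 (0.30, adjusted p = 0.0480), without WT male 1 (0.34, edgeR, adjusted p = 0.0219) and without sex in the model (0.32, edgeR, adjusted p = 0.0407). For Dynlt1a, the change was 0.22 (SE 0.12, edgeR, adjusted p = 0.448), and it was -0.12 when counts were made from length-scaled TPM. For Dynlt1c, the 12-library change was 0.16 (SE 0.11, edgeR, adjusted p = 0.561). In mean TPM both were lower in Q84, Dynlt1a at 3.61 against 4.08 TPM in WT and Dynlt1c at 9.20 against 10.7 TPM in WT libraries. The other Tctex genes had higher mean TPM in Q84. The Dynlt1 genes share reads, so these are not separate observations. Dynlt3, on the X chromosome and with its own sequence, had 832 to 1237 CPM, median 1022, in Q84 and 845 to 1057 CPM, median 889, in WT libraries, a change of 0.17 (SE 0.11, edgeR, adjusted p = 0.520).

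No dynactin subunit was called in the 12- or 10-library fit, and Dctn3 was called lower in 10 libraries when counts were made from length-scaled TPM. Dctn3 had 174 to 226 CPM, median 199, in Q84 and 198 to 232 CPM, median 214, in WT libraries, with a change of -0.15 in 12 libraries (SE 0.071, edgeR, adjusted p = 0.346) and -0.16 in 10 (SE 0.070, edgeR, adjusted p = 0.212). With length-scaled TPM the 10-library change was -0.32 (SE 0.074, edgeR, adjusted p = 0.0243). The 6 subunits had changes between -0.15 and 0.10 in 12 libraries, with a median of -0.08. Dynein 2 chains had changes of -0.10 for Dync2h1 and 0.08 for Dync2li1, and the other kinesins had changes between -0.17 and 0.28.

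Mitotic kinesins were not called in either fit, and they did not share a sign. Kif15 had 1.20, 1.63 and 2.22 CPM as the lowest, median and highest Q84 library and 1.03, 1.20 and 1.37 CPM in WT libraries. Without the library labelled Q84 female 5 at 1.20 CPM the groups did not overlap. The change was 0.51 in 12 libraries (SE 0.18, edgeR, adjusted p = 0.217) and 0.65 in 10 (SE 0.18, edgeR, adjusted p = 0.0531). In the 10 libraries DESeq2 called Kif15 (adjusted p = 0.0170), as did length-scaled TPM (0.95, edgeR, adjusted p = 0.0219), a minimum mean of 1 CPM (0.65, edgeR, adjusted p = 0.0459), the fit without sex (0.62, edgeR, adjusted p = 0.0362) and those without WT male 1 (0.68, edgeR, adjusted p = 0.0418) or WT female 1 (0.79, edgeR, adjusted p = 0.0456). Kif23 had 0.835 to 2.26 CPM in Q84 and 0.795 to 1.93 CPM in WT libraries, with a 10-library change of -0.59 (SE 0.20, edgeR, adjusted p = 0.116) and overlap in 12. In that fit 4 of 7 mitotic kinesins had a positive sign. Of the 20 other genes of dividing cells, 0 were called in either fit (edgeR, 5 at an unadjusted p under 0.05 in each), and their median change was 0.29 in 12 libraries.

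As sums per role, the mean of transport motors was lower in Q84 and that of mitotic kinesins higher, with ranges that overlapped, and the median of mitotic kinesins was lower in Q84. The 35 transport motors, which are kinesin heavy and light chains, dynein 1, its light chains and dynactin, summed to 6332 ± 135 TPM in Q84 and 6889 ± 330 TPM in WT libraries, a ratio of 0.919 (SD, n = 6 each). Their 13 kinesin heavy chains summed to 656 ± 177 TPM in Q84 and 729 ± 76.6 TPM in WT libraries, a ratio of 0.900 that was 0.815 in 10 libraries. Mitotic kinesins summed to 13.5 ± 2.16 TPM in Q84 and 12.4 ± 1.15 TPM in WT libraries, a ratio of 1.09. Q84 male 1 had 16.1 TPM and Q84 female 2 had 16.4 TPM, the other 4 Q84 libraries had 11.4 to 12.9 TPM, and the median was 12.6 TPM in Q84 and 12.9 TPM in WT libraries. The heavy chains held 37.0 to 86.5 times the TPM of the mitotic kinesins in Q84 and 46.5 to 79.2 times in WT libraries. The value of 86.5 was that of the library labelled Q84 female 5. In the 10 libraries the ranges were 37.0 to 49.9 in Q84 and 46.5 to 79.2 in WT, which overlapped. Beside these sums, mitochondrially encoded genes held 10.1 ± 1.15% of counts in Q84 and 7.89 ± 0.943% in WT libraries (SD, n = 6 each), and they take part in the total that TPM is scaled to. With those genes removed, the ratios were 0.967 for transport motors and 1.15 for mitotic kinesins, and dynein light chains turned to 1.02 where the deposited TPM gave 0.971. Sums were given no test.

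Markers of cell types moved with genotype beside the motors. Of 13 nociceptor markers, such as Calca and Scn10a of pain-sensing neurons, 8 fell in Q84 in the 10-library fit, with 12 at an unadjusted p under 0.05 and none with a positive sign. They summed to 2765 to 3495 TPM in Q84 and 5127 to 6329 TPM in WT in these libraries. Between both ranges lay the libraries labelled Q84 female 5, with 4596 TPM, and WT female 2, with 4424 TPM. Of 11 markers of large myelinated neurons, 4 fell, with sums of 1041 to 1495 TPM in Q84 and 1216 to 1851 TPM in WT. Of 15 genes of all neurons, such as Tubb3 and Uchl1, 0 were called (edgeR, 4 at an unadjusted p under 0.05), with a median change of -0.12 and sums of 8820 to 10493 TPM in Q84 and 9402 to 12639 TPM in WT. Satellite glia summed to 2996 to 4220 TPM in Q84 and 3479 to 4496 TPM in WT, and Schwann cell markers to 1665 to 3456 TPM in Q84 and 2065 to 3222 TPM in WT, with 0 of 9 called in each list (edgeR, 1 and 0 at an unadjusted p under 0.05). Of 9 genes of fibroblasts and vessels, Pdgfra rose (log2 fold change 0.61, SE 0.099, edgeR, adjusted p = 0.00303) and Rgs5 fell (-1.38, SE 0.13, edgeR, adjusted p = 7.99e-05) in 10 libraries. In that fit 6 of the 9 were at an unadjusted p under 0.05, 8 had a positive sign and the median change was 0.51, while sums were 875 to 1132 TPM in Q84 and 853 to 1086 TPM in WT. Of 6 surface epithelium genes 4 fell in the 10 libraries (edgeR), and their sum was 184 TPM in WT female 1, 6.65 to 8.40 TPM in Q84 and 5.56 to 8.71 TPM in the other 5 WT libraries. The part of cell make-up in the falls of Dynll2, Kif5b and Kif5c was not tested.

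The library labelled Q84 female 5 stood apart in transport kinesins and in some members of other roles. It was the highest of 12 libraries for 10 of the 13 heavy chains and for 20 of the 50 members. Kif26b, Dctn1 and Dync1h1, which are not transport heavy chains, were also highest in it, at 0.768, 0.743 and 0.729 above their 12-library means (log2). The median log2 difference of this library from the mean of the other 11 libraries was 0.551 over the 13 heavy chains. Its dynactin median was -0.180 and its dynein light chain median -0.162. Across the 50 members this difference had a Spearman rho of 0.41 with the length of the main transcript, a description over genes that share 1 library. Among all genes, those with transcripts over 3623 bases exceeded those under 1994 bases by 0.177 in median log2 difference in this library, against -0.136 to 0.150 in the others. WT male 1, with the lowest such value, was the lowest library for 3 heavy chains, and Q84 female 1, at -0.112, was the lowest for 5. The part of transcript length or RNA quality in the members' differences was not tested.

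**Figure D4:**
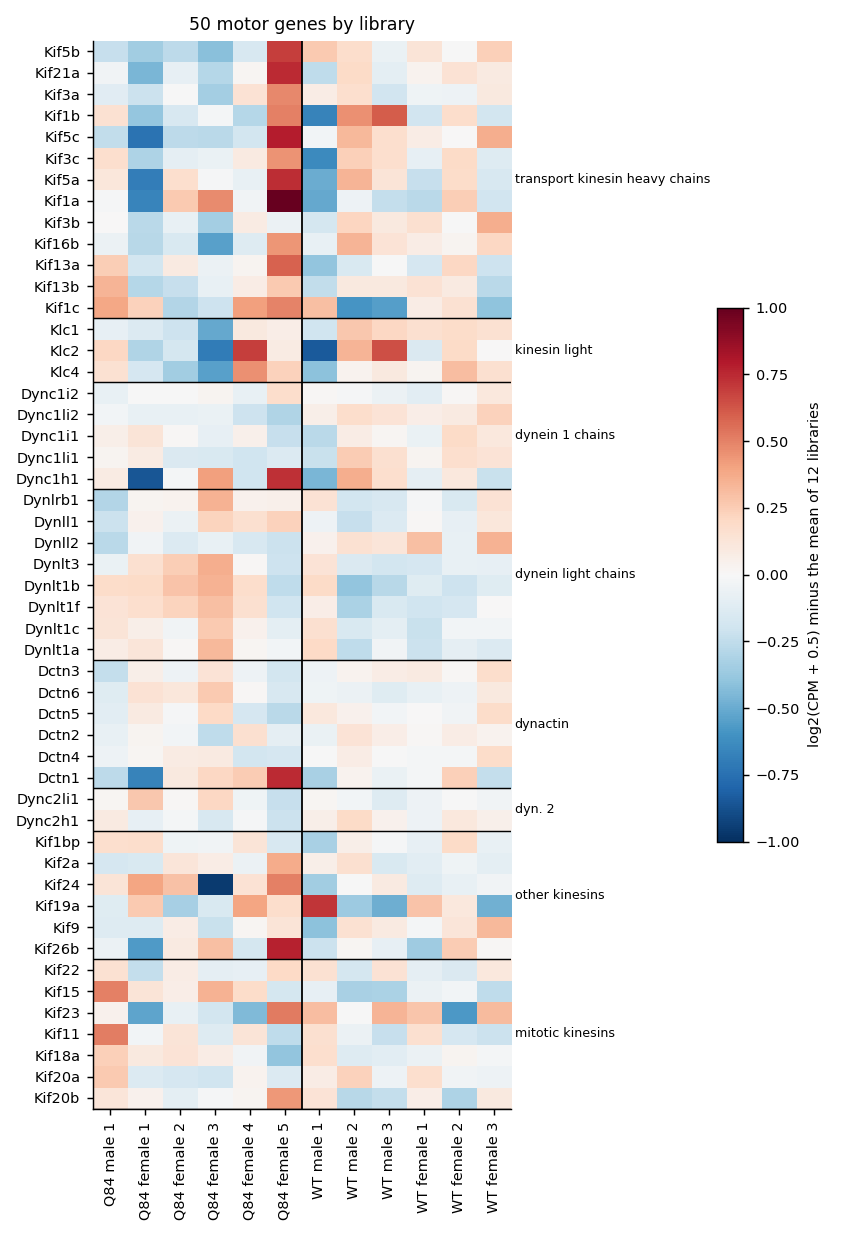
Log2(CPM + 0.5) of each member minus its mean over 12 libraries, with Q84 libraries left of the black line and WT libraries right of it. The column of Q84 female 5 is red in 10 of the 13 transport kinesin heavy chains as the highest library and mostly pale or blue in dynactin and dynein light chains.

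Transcripts were compared next, since motors are spliced into forms with different ends. With 12 libraries 0 of 222 member transcripts were called, and 0.0% of 62686 transcripts tested in all (edgeR, 21 member transcripts at an unadjusted p under 0.05, where 9.27% of all transcripts were). Kif16b-201, a coding transcript, had the smallest p among the higher ones, at 0.517 to 1.03 TPM in Q84 and 0.135 to 0.520 TPM in WT libraries (log2 fold change 1.31, SE 0.33, edgeR, adjusted p = 0.321). Kif15-205, annotated as a target of nonsense-mediated decay, had 0.265 to 0.714 TPM in Q84 and 0.198 to 0.359 TPM in WT libraries (log2 fold change 1.09, SE 0.31, edgeR, adjusted p = 0.338). Both stood on levels near or below 1 TPM.

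In the 10 libraries 4 member transcripts fell and none was called higher, where 0.909% of 61522 transcripts tested were lower and 0.148% higher. Dynll2-201 holds 96.6% of the TPM of its gene, so its fall (log2 fold change -0.39, SE 0.054, edgeR, adjusted p = 0.00871) restates that of Dynll2. Dync1li2-205, a shorter coding transcript of 1407 bases, had 7.35, 12.5 and 16.9 TPM as the lowest, median and highest Q84 library and 19.8, 24.4 and 25.6 TPM in WT libraries, with no overlap in 12. Its log2 fold change was -0.75 (SE 0.13, edgeR, adjusted p = 0.0269) in 10 libraries. It made up 8.44 ± 1.62% of the gene's TPM in Q84 and 12.4 ± 0.909% in WT libraries (SD, n = 6 each). Dynlt3-204 and Dctn3-202 are listed as processed transcripts without a coding sequence. Dynlt3-204 had 1.82 to 5.64 TPM in Q84 and 4.03 to 16.5 TPM in WT libraries. Its log2 fold change was -1.57 (SE 0.22, edgeR, adjusted p = 0.0101) in 10 libraries and -1.43 (SE 0.31, edgeR, adjusted p = 0.288) in 12. Dctn3-202 had 26.0 to 88.2 TPM in Q84 and 37.6 to 158 TPM in WT libraries. In the 10-library fit its log2 fold change was -1.67 (SE 0.32, edgeR, adjusted p = 0.0457). The coding Dctn3-201 averaged 347 ± 23.6 TPM in Q84 and 381 ± 25.0 TPM in WT libraries (SD, n = 6 each). Leaving out 1 more library called 0 to 5 member transcripts, of which 0 to 4 were among these 4. Dynlt3-204 was called in 9 of 10 such fits, Dynll2-201 in 8, Dync1li2-205 in 4 and Dctn3-202 in 1. Without WT male 1 there were 5 calls, of which Dynlt1b-201 (0.44, edgeR, adjusted p = 0.0145) and Dynlt1f-201 (0.43, edgeR, adjusted p = 0.0435) were higher. Kif5b-201 was called lower without WT male 3 (-0.45, edgeR, adjusted p = 0.0278). None was called without WT female 3, and 1 without WT female 1.

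No member was called between the sexes. With genotype in the model, 0 of 50 members were called between male and female libraries, where 12 of 18875 genes, 0.0636%, were (edgeR, and DESeq2 and limma-voom also called 0 members). Dynll1 alone had an unadjusted p under 0.05, as did 3.82% of all genes (edgeR). It had 347 to 393 CPM in the 4 male and 385 to 478 CPM in the 8 female libraries, a log2 fold change of -0.22 male over female (SE 0.081, edgeR, adjusted p = 1). Dctn3 followed at -0.13 (SE 0.075, edgeR, adjusted p = 1), and Kif11 at 0.24 (SE 0.16) and Kif20a at 0.22 (SE 0.14) had the smallest p among the higher ones. A fit with the product of sex and genotype, added after the data were seen, called 0 of 50 members, where 8 of 18875 genes, 0.0424%, were called (edgeR, 0 members at an unadjusted p under 0.05). There was 1 Q84 male, so the sexes were compared mainly among WT libraries.

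Adaptors and regulators of the motors gave few calls, where 0.0053% of all genes were called in 12 libraries and 6.45% in 10. Of 45 listed symbols 44 were found, and 0 were called in 12 libraries (edgeR, 4 at an unadjusted p under 0.05) with a median change of 0.01. The list held Kif1bp, itself a member, also under its other name Kifbp. In the 10 libraries 1 was called, Fez1, which links kinesin-1 to vesicles, with 307 ± 11.2 CPM in Q84 and 538 ± 56.1 CPM in WT (SD, n = 5 each). Its log2 fold change was -0.84 (SE 0.081, edgeR, adjusted p = 9.7e-05). Ndel1, a regulator of dynein, had 144, 155 and 165 CPM as the lowest, median and highest of all 6 Q84 libraries and 167, 182 and 209 CPM in WT libraries, and missed the threshold (10-library log2 fold change -0.24, SE 0.072, edgeR, adjusted p = 0.0742). The list was summed at 2696 to 3231 TPM in Q84 and 3101 to 3739 TPM in WT libraries.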

How the data were processed

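The submitters' processing notes name kallisto 0.46.2, STAR 2.7.10b and the build GRCm39, without their roles. Per the file headers, the authors deposited estimated counts, effective lengths and TPM for 116313 transcripts in each of 12 libraries. Estimated counts come as fractions with no scaling among libraries, and the authors' TPM corrects for transcript length and library total. Reads of near-identical transcripts are divided by likelihood, so such genes are uncertain.

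Transcripts were assigned to genes by Ensembl identifier in GENCODE M21, an annotation of GRCm38, and 98.3% matched. No gene coordinates are given, because the builds differ. Promoter windows and coding sequences are from references of GRCm38. For each gene the estimated counts were added up and rounded. Genes were filtered with filterByExpr, scaled with TMM and tested with edgeR 4.0.16 (quasi-likelihood, robust) over all genes, with sex and genotype in the model, Benjamini-Hochberg adjustment and a threshold of 0.05. Alternatives were DESeq2 1.42.0, limma-voom (limma 3.58.1), other filters and scaling, counts from length-scaled TPM, the replicate number as a block, and fits without single libraries. Scripts were tested on simulated data. Differences between libraries of one group exceeded sampling noise (chi-square per degree of freedom 30.9 or more).

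The members, roles and lists were chosen with earlier results of these data known. Genes named with values were the 3 highest members by TPM in each role, members called in the 12- or 10-library fit, and the 6 higher and 6 lower members of smallest p in each. For sex and transcripts the rule named those called, otherwise the 2 higher and 2 lower of smallest p. Of the adaptor list it named those called, and Ndel1, the remaining examples and Kif5a were chosen after their values were seen.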

Additional observations from a re-analysis of the deposited data

Results flagged for a closer look

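Each member's 6 Q84 and 6 WT values were checked for 1 library whose gap to its nearest neighbour was a large part of the group's range (Dixon's test, 95% critical value), 100 checks in all. There were 11 such values, and chance gives about 1 in 20 groups. The library labelled Q84 female 5 held 7 of them. It was the highest Q84 library for Kif5b at 1099.8 CPM, for Kif5c at 641 CPM, for Kif21a at 1011 CPM, for Dync1i2 at 742 CPM and for Kif20b at 2.24 CPM. It was the lowest Q84 library for Dynlt1b at 27.5 CPM and for Dynlt1f at 17.9 CPM, which share reads. Kif24 was lowest in Q84 female 3 at 0.802 CPM. Among WT libraries, Klc1 was lowest in WT male 1 at 668 CPM, Dynlt3 was highest in WT male 1 at 1057 CPM, and Dctn6 was highest in WT female 3 at 148 CPM.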

How the results depend on the processing

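In 12 libraries 0 members were called with edgeR, and DESeq2 called 2 (3.28% of all genes), the replicate block 1 (3.39%) and the fit without both doubted libraries 3 (6.45%). In 10 libraries 3 were called, and DESeq2 called 6 (10.3% of all genes), length-scaled TPM 5 (5.9%) and a fit without sex 8 (8.08%). Leaving out 1 library gave 0 to 3 calls of 12-library members, 3 without the library labelled Q84 female 5 (5.77%) and 1 without that labelled WT female 2 (0.271%). It gave 1 to 8 in 10 libraries, 1 without WT female 3 (3.95%) and 8 without WT male 1 (10.6%). Of member transcripts 0 were called in 12 libraries, 4 without both doubted libraries and 0 to 1 when 1 library was left out. In the 10 libraries leaving out 1 more gave 0 to 5, of which 2 were higher without WT male 1. Changes of sign were looked for among the genes named by p in each comparison. There the log2 fold change turned with length-scaled TPM for Dynlt1a between Q84 and WT (-0.12) and for Kif20a between male and female (-0.071). Other members turned as well. With length-scaled TPM, members with a positive sign went from 27 to 25 in 12 libraries, from 25 to 23 in 10 and from 19 to 15 for male against female. The cause was not tested.

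Same-numbered libraries of Q84 females, WT females and WT males correlated at -0.13 to 0.24 in their differences from the group mean. Differently numbered libraries were not compared beside them, so whether replicate numbers pair the libraries was not tested. With the replicate block Kif5b was called in 12 libraries (log2 fold change -0.45, edgeR, adjusted p = 0.0310), and in 10 libraries the block called 3 members. Mean sums of TPM for transport motors, transport kinesin heavy chains and mitotic kinesins kept their side of a ratio of 1 under every alternative run. Mitotic kinesins had 0.795 to 6.46 CPM per library, the lowest values of any role but near those of Kif24, and 1 Q84 male limits any statement on sex.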

Other observations

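Some motor genes are listed with several coding transcripts, and their shares of the gene's TPM are given here as a description. The 4 main coding transcripts of Kif21a held 16.4, 22.3, 29.5 and 27.0% of its TPM in Q84 and 20.03, 23.0, 22.9 and 29.7% in WT libraries, in the order Kif21a-201, Kif21a-202, Kif21a-204 and Kif21a-205. Kif21a-204 held 29.5 ± 1.43% in Q84 and 22.9 ± 2.61% in WT libraries (SD, n = 6 each), while as a level it missed the threshold in both fits (edgeR, adjusted p = 0.652 in 12 libraries and 0.409 in 10). Klc1 was split between Klc1-202 at 40.6 ± 2.13%, Klc1-203 at 32.6 ± 1.86% and Klc1-201 at 14.6 ± 3.12% in Q84 libraries. In WT libraries these shares were 40.9 ± 1.52%, 30.02 ± 1.82% and 16.5 ± 1.67% (SD, n = 6 each). Dync1i1-202 held 14.0 ± 1.43% of its gene in Q84 and 18.7 ± 1.93% in WT libraries, and as a level it missed the threshold (edgeR, adjusted p = 0.321 in 12 libraries). Shares of transcripts within a gene were given no test.

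Genes outside the neurons were listed as well. Red blood cell genes, such as Hbb-bs and Alas2, summed to 890 to 6795 TPM in Q84 and 597 to 3446 TPM in WT libraries, with 7 of 7 positive in sign and 0 called (edgeR, 7 at an unadjusted p under 0.05). Macrophage genes summed to 52.6 to 120 TPM in Q84 and 54.2 to 115 TPM in WT libraries. Ciliated cell genes summed to 12.1 to 20.4 TPM in Q84 and 14.5 to 17.4 TPM in WT libraries.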
